A study of Mus musculus with 3 samples.

Results

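The cells described here are Trp63-positive cells of the mouse larynx, called basal for this gene, in which Nkx2-1 and Tmprss11a, a gene of the airway side and a gene of the squamous side of the larynx, were counted in the same barcode. A barcode was taken as a double carrier when it held at least 2 unique molecular identifiers (UMIs, counted RNA molecules) of Nkx2-1, at least 2 of Tmprss11a, at least 1 of Trp63 and fewer than 20 UMIs of Scgb3a2 per 10000. Members were thus selected on measured UMIs. The number of detected genes had to lie from 500 to 8000 and that of UMIs from 1000 to 40000, mitochondrial UMIs made up no more than 8%, and barcodes with UMIs of all of Krt5, Ltf, Scgb3a1 and Dcn were left out. These limits kept 41033 of 60530 deposited barcodes, and 2630 of the 41033 were double carriers. The comparison groups were 2811 Trp63-positive cells with at least 2 UMIs of Nkx2-1 and none of Tmprss11a (Nkx2-1-only) and 9676 with at least 2 UMIs of Tmprss11a and none of Nkx2-1 (Tmprss11a-only), both under the same limits.

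Cells came from Lrig1CreERT2/+; ROSALSL-tdTom/+ mice, in which tamoxifen lets cells with an active Lrig1 promoter switch on the red reporter tdTomato, and tdTomato-positive cells were collected by sorting, 1 day after tamoxifen-induced recombination. Every library, of 3 in all, was a pool of 10 larynges from 5 male and 5 female mice, so the library was the replicate, n was 3 throughout, and the sort was meant to leave out cells outside the Lrig1 lineage. Single mice could not be told apart within a pool, and all 3 libraries belonged to the same condition. Between 10816 and 31646 barcodes and between 147898790 and 413632222 UMIs were deposited per library.

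Nkx2-1 encodes a homeodomain transcription factor that marks the respiratory part of the foregut and the thyroid, while Tmprss11a encodes a membrane serine protease of the TMPRSS11 family, found in stratified squamous epithelium. Trp63 encodes p63, the transcription factor of basal cells, which attach to the basement membrane and renew both pseudostratified airway epithelium and stratified squamous epithelium. In the larynx these epithelia meet, and a border between epithelia is known as a transition zone. In GRCm39, Nkx2-1 (ENSMUSG00000001496) is a protein-coding gene at chr12:56578742-56583722 on the minus strand, Tmprss11a (ENSMUSG00000072845) lies at chr5:86558269-86616849 on the minus strand, and Trp63 (ENSMUSG00000022510) lies at chr16:25502513-25710852 on the plus strand.

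Double carriers were found in every library. Libraries 1, 2 and 3 held 371, 374 and 1885 of them, or 6.17% (95% Wilson interval 5.59 to 6.80), 8.08% (7.33 to 8.90) and 12.6% (12.1 to 13.1) of the Trp63-positive cells under the Scgb3a2 limit. Their mean share was 8.95% ± 3.31 (SD, n = 3), against 10.9% ± 0.335 for Nkx2-1-only and 36.9% ± 5.39 for Tmprss11a-only cells. Relative to its mean this share varied more across libraries than those of the single carriers, and library 3, which held the most barcodes, had the highest. The intervals cover counting error only.

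The rule chose the members on the levels of their own defining genes, which are therefore given as a description. The median double carrier held 3 UMIs of Nkx2-1 (highest 16), 5 of Tmprss11a (highest 69) and 12 of Trp63 (highest 127). Many members lay close to the limits. Nkx2-1 was at exactly 2 UMIs in 954 of them, Tmprss11a at exactly 2 in 530, both in 209, and Trp63 at exactly 1 in 78. At the other end, 393 cells (14.9%) held at least 5 UMIs of both genes. Just outside the rule lay 1501 cells with a single UMI of Nkx2-1, 810 with a single UMI of Tmprss11a, 41 without a UMI of Trp63, 241 over the Scgb3a2 limit and 999 that were left out for holding Krt5, Ltf, Scgb3a1 and Dcn together. Markers that the rule did not use were read with every cell thinned by random draws to 5000 UMIs and beside Pdgfra cells (at least 2 UMIs of this fibroblast gene) without Trp63 and Epcam, which should lack them. Dapl1, a gene of the basal cell list, had a UMI in 76.4% ± 1.60 of double carriers and 4.19% ± 0.893 of these cells (SD, n = 3; 96.4% and 8.03% without thinning). Krt14, a basal keratin of stratified epithelium, had one in 53.1% ± 6.53 and 8.07% ± 5.88 (65.4% and 15.9% without thinning). These values set double carriers apart from fibroblasts, not from other Trp63-positive epithelium. Dapl1 had a UMI in 66.0% and 66.6% of Nkx2-1-only and Tmprss11a-only cells too, and Krt4, a suprabasal keratin, had one in 45.2% of double carriers after thinning. Scgb3a2, which the rule did use as an upper limit, also had one in 45.2%.

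Summed per library and scaled to library size as edgeR's CPM, Nkx2-1 reached 174, 161 and 184 CPM in double carriers and 209, 180.0 and 232 in Nkx2-1-only cells of libraries 1, 2 and 3. Tmprss11a reached 344, 372 and 397 CPM in double carriers and 609.6, 497 and 598 in Tmprss11a-only cells. In each library both levels were below those of the single carriers of that gene, although the rule set these levels in part. Scgb3a2, a secretoglobin of airway secretory cells, averaged 279 ± 38.6 CPM in double carriers, 290 ± 76.8 in Nkx2-1-only and 31.2 ± 14.1 in Tmprss11a-only cells. The rule capped Scgb3a2 in each of these groups. Double carriers were also deeper. Their median was 18885, 23528 and 18145 UMIs in libraries 1, 2 and 3, which was 1.23 ± 0.0377 times that of Nkx2-1-only and 1.11 ± 0.0490 times that of Tmprss11a-only cells (SD, n = 3).

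Within Trp63-positive cells under the Scgb3a2 limit the genes occurred together less often than unrelated genes would. This is a description, as it rests on the UMI limits that chose the members. Tmprss11a was at 2 UMIs or more in 31.4%, 37.4% and 46.3% of the cells with at least 2 UMIs of Nkx2-1, against 43.1%, 57.7% and 64.3% of the other cells. If the genes had been unrelated, 482, 533 and 2418 cells would have held both, and 371, 374 and 1885 did, an odds ratio of 0.604, 0.438 and 0.479. The odds ratio was also below 1 in every depth class, without being lower than the overall one in each. Between 10000 and 20000 UMIs it was 0.378, 0.265 and 0.237, with 201, 110 and 964 cells holding both, and from 20000 UMIs 0.171, 0.151 and 0.128. Between 5000 and 10000 UMIs it was 0.424, 0.495 and 0.464, with 15, 8 and 138 such cells, and below 5000 UMIs 0.335, 0 and 0.541, with 2, 0 and 11. Cells with both genes were thus fewer than the product of both shares gives, in every library. Yet they formed 8.27%, 6.04% and 14.9% of the Trp63-positive cells under the Scgb3a2 limit between 10000 and 20000 UMIs.

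A droplet that caught 1 cell of each kind would also look like a double carrier, so the number expected from such droplets was computed. Every pair of kept barcodes of a library was summed and put through the rule, and 1.97%, 3.44% and 6.49% of the pairs of libraries 1, 2 and 3 met it while neither barcode met it alone. With 0.4% of droplets holding 2 cells per 1000 barcodes, the nominal rate of the kit, this gave 25.7, 16.1 and 260 double carriers, 302 in all against 2630 observed. The observed number was 14.4, 23.2 and 7.25 times the expected one, and the expected one was 6.93%, 4.31% and 13.8% of the observed. The rate was also calibrated within each library, from Trp63-positive barcodes that carried Nkx2-1 or Tmprss11a together with at least 2 UMIs of a gene of another lineage (Pax7, Myf5, Pdgfra, Cdh5, Pecam1 or Csf1r). Calibrated this way, the median over the 6 genes gave 29.8, 26.9 and 223 cells, with a range of 13.0 to 64.5, 0 to 91.0 and 82.4 to 534. The highest of these estimates equals 17.4%, 24.3% and 28.3% of the observed double carriers. It came from Pax7 in library 1 and from Csf1r in libraries 2 and 3, where it rested on 6 and 11 barcodes. Myf5, a muscle satellite cell gene like Pax7, gave 13.0, 11.5 and 102 cells. Under this random pairing, the observed numbers correspond to 104%, 100.4% and 91.7% of all barcodes holding 2 cells. Cells that enter a droplet together in a way that is not random were not modelled, and the cause of the double carriers was not tested.

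**Figure D1:**
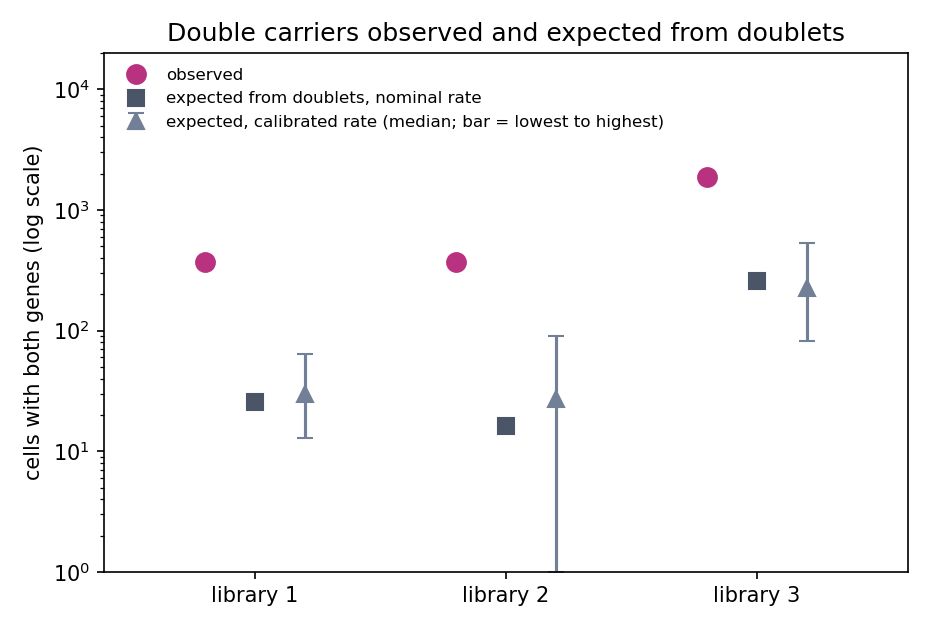
Number of cells with both genes in each of the 3 libraries, on a log scale. Circles are the observed double carriers (371, 374 and 1885), squares the number expected from droplets with 2 cells at the nominal rate (25.7, 16.1 and 260), and triangles the median over 6 calibrating genes with bars from the lowest to the highest; the lowest value of library 2 is 0 and its bar is drawn to the foot of the axis. Every circle lies above the top of the bar of its library.

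Barcodes that resembled simulated doublets were nevertheless more common among double carriers. The score, the share of simulated doublets among the 30 nearest barcodes, was above the limit set by the nominal rate in 29.1%, 16.8% and 41.4% of double carriers. It was above it in 17.2%, 11.5% and 24.9% of Nkx2-1-only, 15.2%, 8.21% and 22.1% of Tmprss11a-only and 10.4%, 6.55% and 18.8% of all kept cells. The part of the greater depth of double carriers in these scores was not tested. With the cells above the limit left out, 263, 311 and 1105 double carriers remained.

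RNA free in the suspension gives UMIs in cells that do not make them. Among Trp63-negative, Epcam-negative cells with at least 2 UMIs of Pdgfra, Myf5 or Cdh5 (defining genes of fibroblasts, muscle satellite cells and endothelial cells), Nkx2-1 was at 2 UMIs or more in 0 to 0.195% and Tmprss11a in 0 to 0.365%, by library and cell type. At least 1 UMI was found in 0 to 3.50% for Nkx2-1 and 0 to 6.94% for Tmprss11a. Both genes at 2 UMIs were found in 0 cells of every such group. In the largest, 0 of 1490 Pdgfra cells of library 1 allows a share of up to 0.201%. These cells were shallower, with medians of 5089 to 11629 UMIs, than double carriers. They also had to lack Trp63 and Epcam, which can leave out the cells with the most free epithelial RNA. Thinned to 5000 UMIs each, 34 of 4062, 33 of 3610 and 249 of 11553 Trp63-positive cells under the Scgb3a2 limit still met the rule, or 0.837%, 0.914% and 2.16%. Libraries shared 46 (1 and 2), 165 (1 and 3) and 96 (2 and 3) barcode sequences. A shared barcode was carried by 35 double carriers, and 0 were double carriers in both libraries.

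The remaining genes, which the rule did not use, were then compared between groups as UMI counts summed per library, with edgeR's quasi-likelihood test and Benjamini-Hochberg adjustment over 16399 genes at a threshold of 0.05. Fold changes are log2 ratios of these normalised sums with their standard error (SE), and the same double carriers enter each comparison. The 2 kinds of single carrier differed widely, as 1867 genes (11.4%) were higher and 2220 (13.5%) lower in Tmprss11a-only than in Nkx2-1-only cells. Double carriers differed from Nkx2-1-only cells in fewer genes, with 309 (1.88%) higher and 305 (1.86%) lower, and from Tmprss11a-only cells with 574 (3.50%) higher and 311 (1.90%) lower. With the library as a block, which compares the groups within each pool, these became 1481 (9.03%) and 1445 (8.81%) against Nkx2-1-only cells and 1476 (9.0%) and 1284 (7.83%) against Tmprss11a-only cells. These shares of all genes are the background for the counts of each list. The counts rest on few libraries: without library 1, 2 or 3 the calls were 1, 135 and 469 against Nkx2-1-only cells, and 163, 267 and 562 against Tmprss11a-only cells.

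Some airway genes were far higher in double carriers than in Tmprss11a-only cells, while most of the list was not called. Of 27 airway genes tested, 5 were higher and 2 lower than in Tmprss11a-only cells and 20 were not called (median log2 difference 0.12; 10 and 6 with the block). Of all genes, 3.50% and 1.90% were called in these directions (9.0% and 7.83% with the block). Against Nkx2-1-only cells 1 was higher and 2 lower (median -0.18; 3 and 12 with the block), beside 1.88% and 1.86% of all genes (9.03% and 8.81% with the block). The medians over all genes were -0.02 and -0.01 in the 2 comparisons. Aldh1a7, an aldehyde dehydrogenase, reached 35.3, 27.3 and 36.1 CPM in double carriers of libraries 1, 2 and 3, 40.4, 28.5 and 45.4 in Nkx2-1-only cells and 4.75, 3.96 and 4.87 in Tmprss11a-only cells. Double carriers thus overlapped with Nkx2-1-only cells and lay far above Tmprss11a-only cells, at a log2 difference of 2.86 (SE 0.19, adjusted p 9.28e-05). Cldn10, a claudin that forms ion-permeable tight junctions, showed the same order, with 17.6, 15.5 and 26.0 CPM, 19.9, 21.1 and 26.6, and 3.32, 1.89 and 3.98 (2.68 above Tmprss11a-only cells, SE 0.29, adjusted p 9.94e-04). Chad, encoding the matrix protein chondroadherin, was 2.05 higher than in Tmprss11a-only cells (SE 0.25), Sftpd, encoding surfactant protein D, 2.64 higher (SE 0.49), and the water channel gene Aqp4 0.59 higher (SE 0.09). Of these 5 genes Sftpd varied most between libraries, at 76.3, 52.1 and 30.9 CPM in double carriers.

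Krt18 and Krt19 were lower than in Nkx2-1-only cells. Krt18, a keratin of simple epithelium, was at 146, 128 and 107 CPM in double carriers, 264, 342 and 199 in Nkx2-1-only and 110.2, 115 and 89.3 in Tmprss11a-only cells. It fell by 1.08 against Nkx2-1-only cells (SE 0.20, adjusted p 0.0195), and Krt19 fell by 0.49 (SE 0.11, adjusted p 0.0477). Aldh3a1 and Gsto1, of detoxification, stood on the airway list but were higher in Tmprss11a-only cells, and Aldh3a1 in double carriers lay between both groups: 240.4, 301 and 319.7 CPM against 86.7, 87.5 and 125 in Nkx2-1-only and 554, 646 and 692 in Tmprss11a-only cells. No library of any group overlapped with another group for Aldh3a1. Bpifa1 and Krt8, also of the airway list, were lower than both groups with the block alone. Bpifa1, at a mean of 1552 CPM in double carriers, had log2 differences of -1.23 from Nkx2-1-only and -0.98 from Tmprss11a-only cells. Its adjusted p was 0.0643 and 0.124 without the block, and 3.01e-04 and 3.20e-04 with it. For Krt8 the log2 differences were -0.29 and -0.40 (adjusted p with the block 0.0202 and 0.00336).

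Among squamous genes the larger number of calls were rises over Nkx2-1-only cells. Of 31 squamous genes tested, 13 were higher and 0 lower than in Nkx2-1-only cells (median log2 difference 0.96; 22 and 0 with the block), and 0 were higher and 4 lower than in Tmprss11a-only cells (median -0.48; 1 and 18 with the block). Over all genes 1.88% were higher and 1.86% lower than in Nkx2-1-only cells (9.03% and 8.81% with the block), and 3.50% and 1.90% than in Tmprss11a-only cells (9.0% and 7.83%). Krt13, a keratin of suprabasal cells in wet squamous epithelium, was at 234, 274 and 368 CPM in double carriers, 25.8, 31.5 and 49.7 in Nkx2-1-only and 1111, 419.7 and 805 in Tmprss11a-only cells. It was 3.02 higher than in Nkx2-1-only cells (SE 0.38, adjusted p 0.00636) and, at -1.41 (SE 0.35), did not pass the threshold against Tmprss11a-only cells (adjusted p 0.0511; 0.0089 with the block). Krt6a, a keratin of activated and stratified epithelium, was at 164, 129 and 230.2 CPM against 17.1, 8.78 and 20.3 in Nkx2-1-only cells (3.47 higher, SE 0.47, adjusted p 0.00798), and overlapped with the 260.4, 103 and 336 CPM of Tmprss11a-only cells. Krt6a and Krt6b are near-identical copies, so the counting could split reads between them. Krt14 was at 906, 1111 and 1241 CPM against 397, 409 and 413 in Nkx2-1-only cells (1.42 higher, SE 0.20, adjusted p 0.00920) and 1069, 660.0 and 1172 in Tmprss11a-only cells. Lgals7, encoding galectin-7, was 3.25 higher than in Nkx2-1-only cells (SE 0.42), and its levels of 163, 132 and 256 CPM lay below those of Tmprss11a-only cells of the same library.

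Other proteases of the TMPRSS11 family, which cluster on chromosome 5 beside Tmprss11a, also distinguished double carriers from Nkx2-1-only cells. Tmprss11d was 2.92 higher (SE 0.62, adjusted p 0.0377), Tmprss11e 1.96 higher (SE 0.37, adjusted p 0.0240) and Tmprss11g 1.86 higher (SE 0.27, adjusted p 0.00972). Tmprss11g, the nearest coding gene on that side, lies 16886 bases from Tmprss11a on the same strand, with 0 coding genes between. Its levels were 78.2, 135 and 82.1 CPM in double carriers, 22.7, 32.4 and 26.2 in Nkx2-1-only and 49.1, 78.9 and 47.8 in Tmprss11a-only cells, so that in each library double carriers were the highest of the 3 groups. The difference of 0.74 from Tmprss11a-only cells (SE 0.25) passed the threshold only with the block (adjusted p 0.154 without, 1.77e-04 with it). Tmprss11b was lower than in Tmprss11a-only cells, with 15.1, 30.1 and 31.6 CPM against 91.0, 94.3 and 88.1, a log2 difference of -1.80 (SE 0.30, adjusted p 0.00830). With the block Tmprss11e and Tmprss11f were lower than in Tmprss11a-only cells too, and Tmprss11b was higher than in Nkx2-1-only cells. Desmosomes, the junctions that hold squamous cells together, were represented by 11 genes tested, of which 5 were higher and 0 lower than in Nkx2-1-only cells (median 0.36; 8 and 1 with the block) and 0 higher and 1 lower than in Tmprss11a-only cells (median -0.31; 1 and 5 with the block). Beside these counts, 1.88% of all genes were higher and 1.86% lower than in Nkx2-1-only cells (9.03% and 8.81% with the block). Against Tmprss11a-only cells it was 3.50% and 1.90% (9.0% and 7.83%). Dsc3, Dsg3 and Pkp1 are members of the squamous list too and were already counted there. Dsg3, encoding desmoglein 3, was at 138, 173 and 134 CPM against 72.2, 65.3 and 71.0 in Nkx2-1-only cells (1.09 higher, SE 0.12, adjusted p 0.00372).

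**Figure D2:**
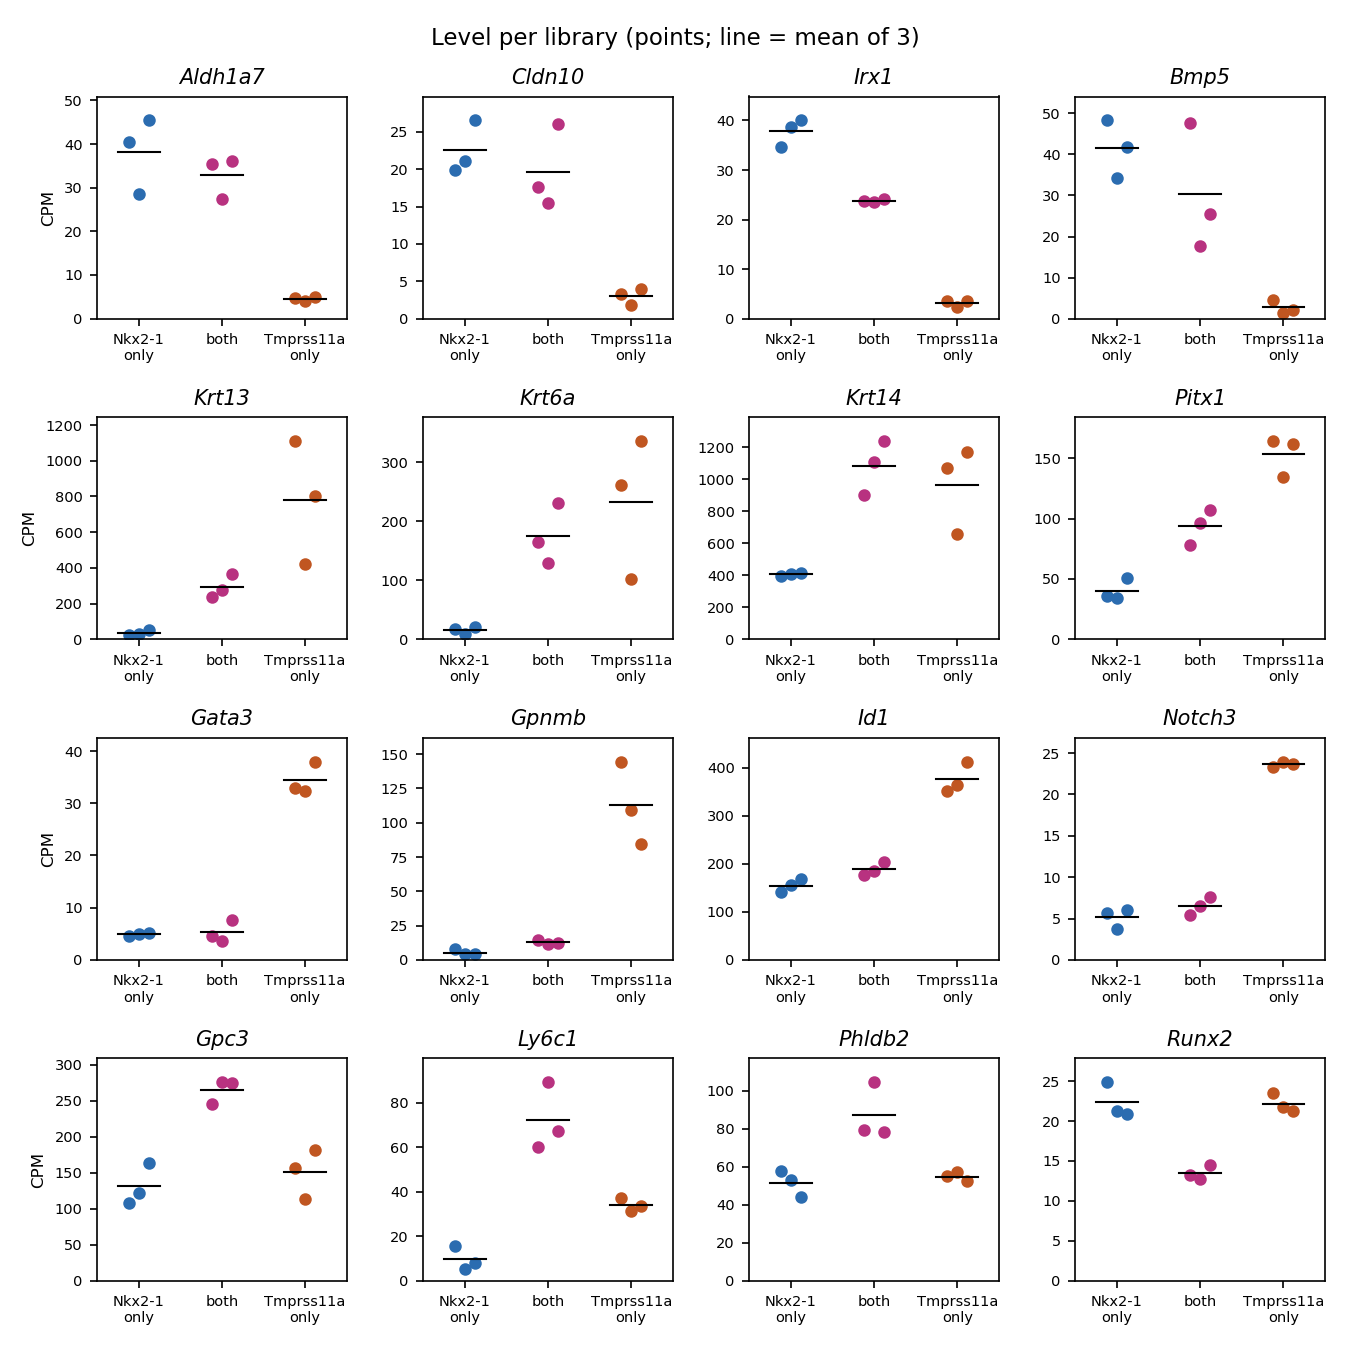
Level in CPM of 16 genes in Nkx2-1-only cells, double carriers (both) and Tmprss11a-only cells; points are the 3 libraries and lines their mean, each panel with its own linear axis from 0. The top row shows genes of the Nkx2-1-only side (Aldh1a7 at 27.3 to 36.1 CPM in double carriers against 3.96 to 4.87 in Tmprss11a-only cells), the second row genes of the squamous side, and the third row genes of the squamous side that were low in double carriers (Gata3 at 3.67 to 7.61 CPM against 32.3 to 38.0). The last row shows genes beyond both single carriers, of which Ly6c1 passed the threshold against Tmprss11a-only cells with the block alone.

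Several markers of suprabasal cells, which have left the basal layer, were lower than in Tmprss11a-only cells. Of 23 suprabasal and hillock genes tested (hillocks are stratified patches within airway epithelium), 0 were higher and 8 lower than in Tmprss11a-only cells (median -0.87; 0 and 16 with the block), and 4 were higher and 0 lower than in Nkx2-1-only cells (median 0.56; 13 and 2 with the block). Beside them stood 3.50% and 1.90% of all genes (9.0% and 7.83% with the block) in the first comparison and 1.88% and 1.86% (9.03% and 8.81%) in the second. Notch3, a receptor of the Notch pathway, was at 5.49, 6.54 and 7.66 CPM in double carriers, 5.69, 3.75 and 6.02 in Nkx2-1-only and 23.3, 24.0 and 23.7 in Tmprss11a-only cells, a log2 difference of -1.82 from the latter (SE 0.18, adjusted p 5.64e-04). Against Tmprss11a-only cells the log2 difference was -1.72 for Mal, a membrane protein of apical transport (SE 0.37, adjusted p 0.0270), -1.27 for the mucin gene Muc4 (SE 0.28, adjusted p 0.0313) and -1.13 for Krt4, the partner of Krt13 (SE 0.20, adjusted p 0.0117). Krt4 in double carriers, at 249, 257 and 353 CPM, was at the same time 1.21 higher than the 124, 107 and 142 CPM of Nkx2-1-only cells (SE 0.20, adjusted p 0.0160). The share of cells behind these sums differed as well, read beside Pdgfra cells without Trp63 and Epcam (medians of 9834 to 11629 UMIs), which should lack keratins. After thinning to 5000 UMIs, Krt4 had a UMI in 45.2% ± 5.63 of double carriers, 24.6% ± 7.52 of Nkx2-1-only, 65.7% ± 8.94 of Tmprss11a-only and 4.53% ± 2.09 of Pdgfra cells (68.6%, 43.2%, 80.2% and 9.34% without thinning). Krt13 had one in 15.5% ± 4.69, 7.07% ± 4.37, 27.5% ± 6.89 and 5.48% ± 4.01 in the same order (31.9%, 16.9%, 40.7% and 10.6% without thinning), so that its share in Nkx2-1-only cells was near the background. Thinning left out 13 double carriers, 109 Nkx2-1-only and 479 Tmprss11a-only cells with fewer UMIs.

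Of 15 basal genes tested, 3 were higher and 0 lower in double carriers than in Nkx2-1-only cells (Igfbp2, Krt17 and Krt14; median 0.25; 7 and 1 with the block), and 3 higher and 0 lower than in Tmprss11a-only cells (Cav1, Pdpn and Snai2; median 0.03; 5 and 3 with the block). The shares over all genes were 1.88% and 1.86% against Nkx2-1-only cells (9.03% and 8.81% with the block) and 3.50% and 1.90% against Tmprss11a-only cells (9.0% and 7.83%). Igfbp2, a binding protein of insulin-like growth factors, was at 92.6, 63.0 and 145 CPM against 14.4, 4.28 and 22.8 in Nkx2-1-only cells (2.80 higher, SE 0.55, adjusted p 0.0258). Pdpn, the mucin-like glycoprotein podoplanin, was at 378, 302 and 354 CPM in double carriers and 336, 332 and 386 in Nkx2-1-only cells, which overlapped, and at 231, 219 and 237 in Tmprss11a-only cells (0.59 higher than these, SE 0.10, adjusted p 0.00983). Cav1, encoding caveolin-1, was 0.90 higher than in Tmprss11a-only cells (SE 0.19, adjusted p 0.0237). Krt15, the most abundant basal keratin of the list, lay between both groups in every library, at 3427, 3591 and 5086 CPM against 2096, 2042 and 4116 in Nkx2-1-only and 5083, 4715 and 6983 in Tmprss11a-only cells. Neither difference of Krt15 passed without the block (adjusted p 0.361 and 0.508), and both did with it (0.0032 and 0.0075).

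Transcription factors of the foregut moved in both directions. Of 41 tested, 2 were higher and 5 lower than in Nkx2-1-only cells (9 and 12 with the block), and 4 were higher and 8 lower than in Tmprss11a-only cells (8 and 12 with the block). Of all genes, 1.88% and 1.86% (9.03% and 8.81% with the block) and 3.50% and 1.90% (9.0% and 7.83%) were called in these directions. Irx1, Irx2 and Irx3, Iroquois homeobox genes expressed in airway epithelium, were intermediate. Irx1 was at 23.8, 23.5 and 24.2 CPM in double carriers, 34.6, 38.8 and 40.0 in Nkx2-1-only and 3.61, 2.43 and 3.49 in Tmprss11a-only cells, without overlap, a log2 difference of -0.67 from the former (SE 0.13, adjusted p 0.0303) and of 2.90 from the latter (SE 0.15, adjusted p 1.78e-05). In the same order, the log2 differences were -0.44 and 1.69 for Irx2 (adjusted p 0.0205 and 1.78e-05), -0.70 and 0.90 for Irx3 (adjusted p 0.0278 and 0.00583) and -1.01 and 1.91 for Gata6, of foregut endoderm (adjusted p 0.0302 and 0.00117). Irx4 and Irx5 passed no threshold without the block. With it Irx5 had log2 differences of -0.25 and 0.38 (adjusted p 0.0449 and 0.00537), whereas Irx4, under 1 CPM in double carriers, was lower than in Nkx2-1-only cells (adjusted p 0.00981) and was not called against Tmprss11a-only cells (adjusted p 0.103). From the other side, Pitx1, a homeobox gene of oral epithelium, was at 77.8, 96.6 and 107 CPM against 35.6, 34.2 and 50.4 in Nkx2-1-only cells (1.22 higher, SE 0.17, adjusted p 0.0092) and 164, 135 and 162 in Tmprss11a-only cells (log2 difference -0.71, SE 0.17, adjusted p 0.0387). Tbx1, a T-box gene of the pharynx, had log2 differences of 0.48 and -0.43 from these groups (adjusted p 0.0206 and 0.0219).

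Gata3 was different. This zinc finger factor of squamous and other epithelia was at 4.50, 3.67 and 7.61 CPM in double carriers, 4.59, 4.92 and 5.09 in Nkx2-1-only and 32.9, 32.3 and 38.0 in Tmprss11a-only cells. Double carriers overlapped with Nkx2-1-only cells (log2 difference 0.19, SE 0.24, adjusted p 0.746) and lay below Tmprss11a-only cells (log2 difference -2.62, SE 0.23, adjusted p 2.85e-04). Id1, Id2 and Id3, inhibitors of basic helix-loop-helix factors and targets of BMP signalling, were also lower than in Tmprss11a-only cells. Id1 was at 176, 186 and 203 CPM in double carriers, 141, 156 and 168 in Nkx2-1-only and 351, 364 and 413 in Tmprss11a-only cells (SE of the log2 difference from the latter 0.10, adjusted p 6.16e-04). Against Tmprss11a-only cells the log2 difference was -1.19 for Id2 (SE 0.14, adjusted p 0.00145) and -1.24 for Id3 (SE 0.15, adjusted p 0.00165). Id3 was at 57.7, 70.0 and 58.9 CPM in double carriers, 55.7, 75.1 and 61.4 in Nkx2-1-only and 120.3, 162 and 156 in Tmprss11a-only cells. Against Nkx2-1-only cells the adjusted p was 0.167 for Id1, 0.694 for Id2 and 0.935 for Id3, and with the block Id1 was 0.28 higher (adjusted p 0.0031) and Id2 and Id3 were not called. Sox9 had the reverse of the pattern of Gata3, at 10.4, 7.57 and 9.01 CPM in double carriers, 10.9, 5.77 and 9.11 in Tmprss11a-only and 36.6, 26.1 and 22.2 in Nkx2-1-only cells, a log2 difference of -1.65 from the latter (SE 0.26, adjusted p 0.0144). Sox2 and Foxa1, factors of the foregut epithelium as a whole, were at 296 to 372 and 127 to 160.3 CPM in double carriers, and the differences from either group passed no threshold (adjusted p 0.805 to 0.984).

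Outside the lists, the named genes with the largest rise over Tmprss11a-only cells were again genes of Nkx2-1-only cells. Bmp5, a ligand of the BMP family, was 3.50 higher (SE 0.47, adjusted p 0.00311), Il18r1, a receptor chain for interleukin-18, 3.49 higher (SE 0.28, adjusted p 1.89e-04), Sult1d1, a sulfotransferase, 3.36 higher (SE 0.40) and Eya4, a transcriptional coactivator, 3.12 higher (SE 0.31, adjusted p 6.15e-04). Sfta3-ps, a long non-coding RNA, was 3.47 higher (SE 0.22, adjusted p 7.75e-05), at 235, 195 and 166 CPM against 24.0, 15.7 and 14.4. It lies 2227 bases from Nkx2-1 on the same strand (chr12:56535106-56576515), so it is no measure apart from the locus that chose the cells. Gfra1, the receptor for the growth factor GDNF, was at 269, 151 and 149 CPM against 36.1, 16.4 and 12.6 in Tmprss11a-only cells (3.14 higher, SE 0.43, adjusted p 0.00329).

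The 10 largest falls against Tmprss11a-only cells were those of Kcnj16, Il33, Gpnmb, Gata3, Nsun7, Scnn1b, Atp6v0a4, Opcml, Synpo2 and Bdnf. Gpnmb, a transmembrane glycoprotein, was at 14.6, 11.4 and 12.7 CPM in double carriers, 7.62, 3.96 and 4.31 in Nkx2-1-only and 145, 109 and 84.5 in Tmprss11a-only cells, a log2 difference of -3.13 from the latter (SE 0.25, adjusted p 1.89e-04). The log2 difference was -4.08 for Kcnj16, a potassium channel (SE 0.64, adjusted p 0.00613), -3.58 for Il33, an alarmin cytokine (SE 0.76, adjusted p 0.0258), -2.24 for Atp6v0a4, a subunit of the proton pump (SE 0.18, adjusted p 1.89e-04) and -2.10 for Bdnf, a neurotrophin (SE 0.26, adjusted p 0.00205). Between -2.43 and -2.11 lay those of Nsun7, Scnn1b, a subunit of the epithelial sodium channel, Opcml, a cell adhesion molecule, and Synpo2, an actin-binding protein. Bdnf and Atp6v0a4 were at the same time 1.51 and 2.04 higher than in Nkx2-1-only cells (adjusted p 0.0258 and 0.00372). Of the largest rises over Nkx2-1-only cells, Chit1, a chitinase, was at 13.3 to 22.7 CPM against 0.857 to 2.66 (3.46 higher, SE 0.45, adjusted p 0.00667), and at 32.5 to 82.7 in Tmprss11a-only cells.

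**Figure D3:**
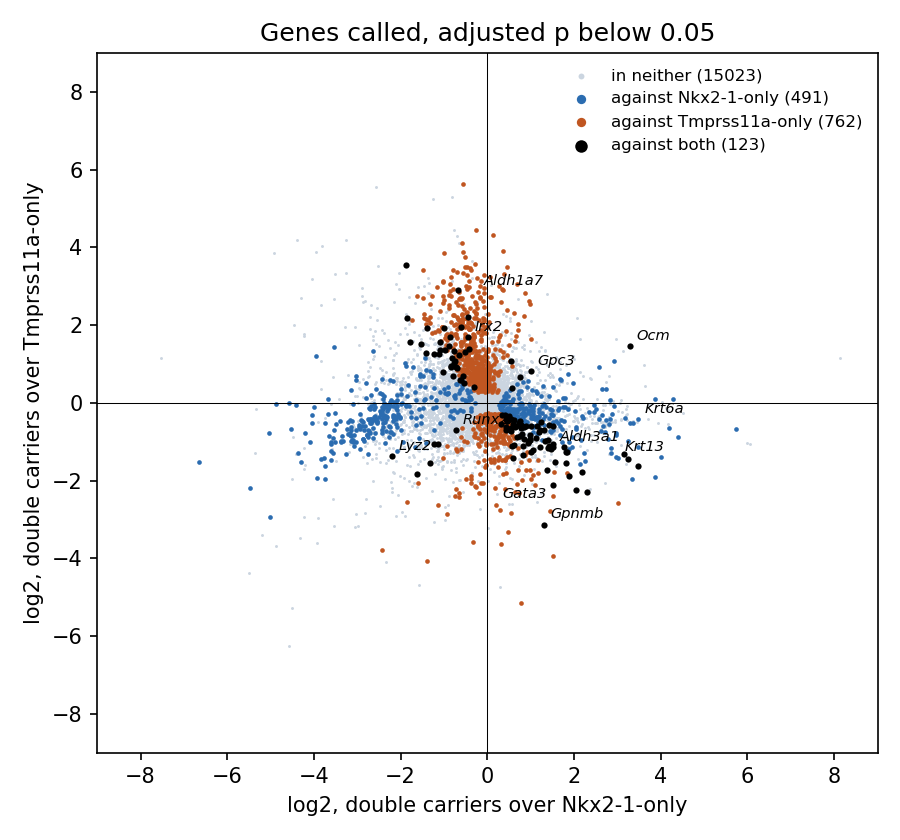
Log2 difference of each of 16399 genes between double carriers and Nkx2-1-only cells (horizontal) and between double carriers and Tmprss11a-only cells (vertical), coloured by the comparison in which it passed the threshold; both axes share the double carriers. Of the 123 genes called in both comparisons, 5 lie in the upper right corner, higher than both groups, and 6 in the lower left corner, lower than both.

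A small number of genes were outside the range of both single carriers. Against both groups, 5 genes were higher (0.0305% of those tested) and 6 lower (0.0366%), and 70 (0.427%) and 57 (0.348%) with the block. Gpc3, a heparan sulfate proteoglycan of the cell surface that binds growth factors, was the most abundant, at 246, 276 and 274 CPM in double carriers, 108, 121 and 163 in Nkx2-1-only and 157, 113 and 181 in Tmprss11a-only cells (1.02 and 0.82 higher, adjusted p 0.0217 and 0.0357). Phldb2, of the cell cortex at the basement membrane, was at 79.5, 105 and 78.2 CPM, with 44.2 to 57.9 in both other groups (0.76 and 0.67 higher, adjusted p 0.0175 and 0.0170). Pde8a, a phosphodiesterase of cyclic AMP, was 0.55 and 1.08 higher, and Atp10a, a phospholipid flippase, 0.56 and 0.37 higher. Ocm, the calcium-binding protein oncomodulin, was low everywhere, at 12.7, 14.3 and 13.0 CPM against 0.535 to 1.67 and 3.47 to 7.07. The 6 lower genes, all named after their values were seen, were St3gal6, Lyz2, Gfra4, Itprid1, Tfcp2l1 and Runx2. Runx2, a Runt-domain transcription factor, was at 13.2, 12.7 and 14.5 CPM against 20.9 to 24.9 in Nkx2-1-only and 21.2 to 23.5 in Tmprss11a-only cells (log2 differences -0.72 and -0.71, adjusted p 0.0107 and 0.00467). Lyz2, a lysozyme of macrophages and gland cells, was at 58.1, 51.3 and 73.8 CPM against 171 to 345 and 119.5 to 185. Barcodes with Krt5, Ltf, Scgb3a1 and Dcn together were left out of every group, which can remove gland RNA. The part of this limit in the level of Lyz2 was not tested. Without library 1 the counts were 0 and 0, without library 2 1 and 1, and without library 3 5 and 12.

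Double carriers were also compared with a mix of equal numbers of Nkx2-1-only and Tmprss11a-only cells per library, the counterpart of droplets with 1 cell of each. Of 15526 genes, 1 was higher (0.00644%) and 2 were lower (0.0129%), and 1061 had an unadjusted p under 0.05. With the block 278 were higher (1.79%) and 393 lower (2.53%), and the 3 genes were among them. Gpnmb was at 14.6, 11.4 and 12.7 CPM in double carriers and 68.6, 53.5 and 47.4 in the mix (fell by 2.13, SE 0.16, adjusted p 0.0378). Etv1, an ETS transcription factor named after its values were seen, was at 12.2, 10.3 and 13.2 CPM against 28.8, 30.6 and 33.4 in the mix (fell by 1.35, SE 0.12, adjusted p 0.0406), and at 12.4 to 15.2 in Nkx2-1-only and 45.0 to 55.8 in Tmprss11a-only cells. Ly6c1, a surface antigen with a near-identical neighbouring copy, was at 60.2, 89.2 and 67.2 CPM in double carriers and 24.9, 21.2 and 21.8 in the mix (1.68 higher, SE 0.15, adjusted p 0.0406). It was above Tmprss11a-only cells (37.2, 31.3 and 33.7 CPM) and Nkx2-1-only cells (15.7, 5.25 and 7.88 CPM) in every library. With another random draw of the mix 0 genes were higher and 2 lower, and of these 3 genes Etv1 alone kept its call: the log2 difference was -1.44 for Etv1 (adjusted p 0.0340), -2.24 for Gpnmb (adjusted p 0.0624) and 1.72 for Ly6c1 (adjusted p 0.0852). No gene of any of the lists was called against the mix without the block. With the block, the named genes higher than the mix included Ly6c1, Tmprss11g (1.17 higher, adjusted p 9.00e-05) and Tshr, the thyrotropin receptor (1.39 higher, adjusted p 0.0055), and the lower ones included Gata3 (fell by 1.81, adjusted p 0.0016), Kcnj16 and Tg.

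**Figure D4:**
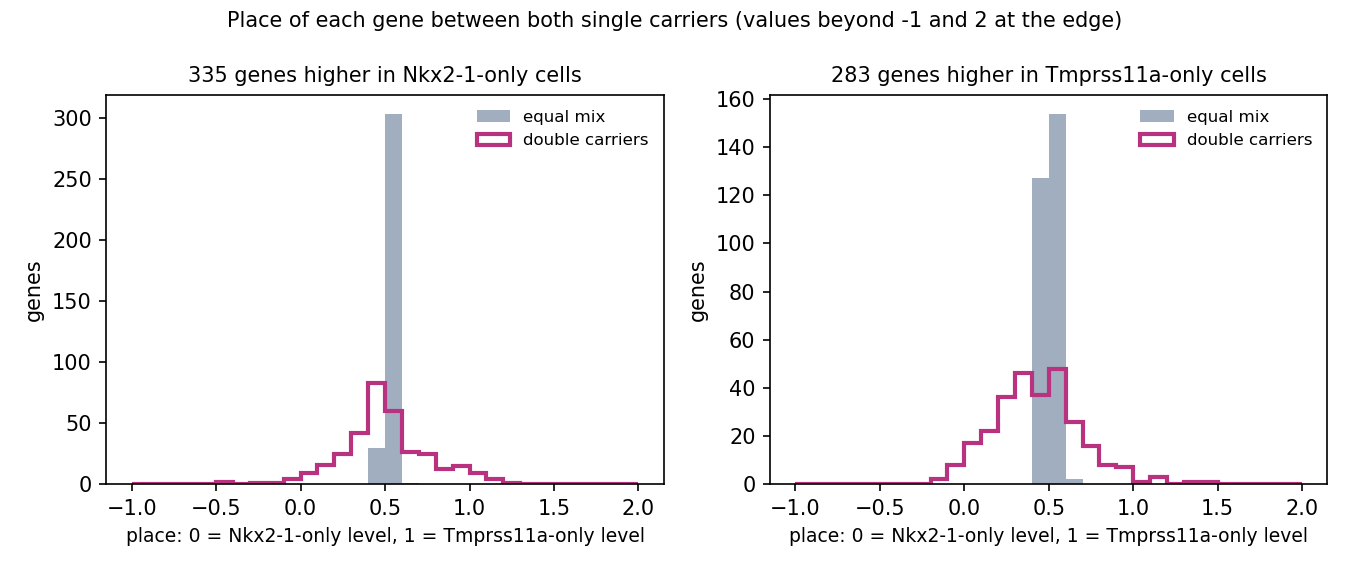
Place of double carriers (outline) and of the equal mix (filled) between the levels of Nkx2-1-only cells (0) and Tmprss11a-only cells (1), for the 335 genes higher in Nkx2-1-only and the 283 genes higher in Tmprss11a-only cells by at least 2-fold, at 10 CPM or more on average; the vertical axis counts genes, each at its median over 3 libraries. The mix stands at a median of 0.520 and 0.503, while double carriers stand at 0.480 and 0.440 and spread from the level of one group to that of the other.

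How far single genes departed from the middle was read from genes called between the single carriers that averaged 10 CPM or more over both, moved alike in 3 libraries and differed at least 2-fold, setting each gene at 0 when at the Nkx2-1-only level and at 1 when at the Tmprss11a-only level. For the 283 genes higher in Tmprss11a-only cells, double carriers had a median place of 0.440 with quartiles of 0.261 and 0.590. Of these genes, 23.3% lay below 0.25, as Gata3 did at -0.0029, and 11.3% above 0.75, as Krt14 did at 1.09. For the 335 genes higher in Nkx2-1-only cells the median was 0.480 with quartiles of 0.357 and 0.623, and 12.8% and 14.9% lay below 0.25 and above 0.75. The mix held its genes between quartiles of 0.486 and 0.521 in the first set, with 0 genes below 0.25 or above 0.75 in either set. The narrow spread of the mix is fixed in part by its making, since it holds cells of both groups. Libraries differed in the same measure, with medians of 0.318, 0.547 and 0.425 in the first set and 0.396, 0.601 and 0.474 in the second for libraries 1, 2 and 3.

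Per cell, both lists were also summed. The 27 airway genes summed to a median of 148, 113 and 158 UMIs per 10000 in double carriers, 166, 144 and 177 in Nkx2-1-only and 121, 107 and 133 in Tmprss11a-only cells. The squamous genes summed to 33.3, 45.1 and 43.5, 28.1, 26.6 and 33.9, and 56.5, 48.3 and 60.5 in the same groups. By these medians double carriers lay between the single carriers on both lists in each library. Summed over cells before scaling, the airway list lay between them in library 1 alone (176 against 214 and 168 per 10000), and below both groups in library 2 (144 against 182 and 148) and library 3 (175.3 against 219.7 and 176.3). After thinning, Aldh1a7 had a UMI in 14.2% ± 2.38 of double carriers, 13.7% ± 4.07 of Nkx2-1-only, 2.17% ± 0.370 of Tmprss11a-only and 0.433% ± 0.397 of the same Pdgfra cells (30.7%, 33.2%, 5.91% and 1.11% unthinned). Krt6a had one in 21.7% ± 4.46, 4.23% ± 2.14, 22.5% ± 6.08 and 1.77% ± 1.76 (33.8%, 8.81%, 33.2% and 3.62% unthinned). For Aldh1a7 double carriers thus lay near the Nkx2-1-only share and for Krt6a near the Tmprss11a-only share.

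Among the 15 nearest cells of a double carrier, on 30 principal components of 2000 variable genes without those of the rule, 19.0%, 28.6% and 36.1% were double carriers in libraries 1, 2 and 3, which themselves held 2.96%, 5.24% and 8.83%. A further 16.7%, 11.8% and 13.5% were Nkx2-1-only, 19.4%, 22.3% and 16.6% Tmprss11a-only and 36.7%, 31.8% and 27.3% other Trp63-positive cells. The libraries held 5.34%, 6.82% and 7.75% Nkx2-1-only cells, less than among these neighbours in each, and 14.7%, 25.9% and 28.0% Tmprss11a-only cells, more than among these neighbours in libraries 2 and 3. Tmprss11a-only cells had 71.8%, 77.6% and 77.4% of their own kind as neighbours and 1.88%, 0.767% and 1.02% Nkx2-1-only cells, and Nkx2-1-only cells had 24.8%, 29.2% and 30.5% of their own kind and 5.05%, 3.67% and 3.45% Tmprss11a-only cells. Double carriers made up 9.89%, 10.8% and 18.2% of the neighbours of Nkx2-1-only cells and 4.06%, 3.77% and 5.20% of those of Tmprss11a-only cells. The libraries also held cells without Trp63. Of the Trp63-positive cells under the Scgb3a2 limit, 30.7%, 40.02% and 39.99% were Tmprss11a-only. The neighbours of double carriers held a smaller share of Tmprss11a-only cells than this in every library. Double carriers made up 6.17%, 8.08% and 12.6% of the same cells and Nkx2-1-only cells 11.1%, 10.5% and 11.1%, less than among these neighbours. Each of the 3 groups thus had more of its own kind among its neighbours than either baseline held. The shares are a description, with no test.

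**Figure D5:**
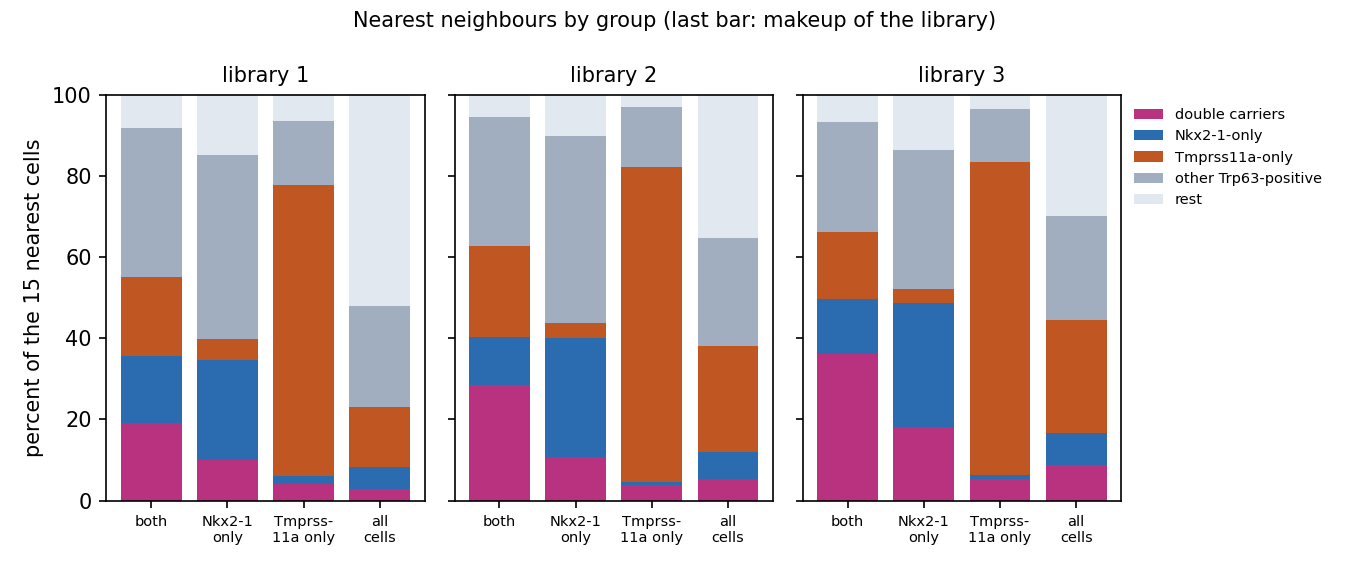
Makeup of the 15 nearest cells (percent, stacked to 100) of double carriers, Nkx2-1-only cells and Tmprss11a-only cells in each of 3 libraries, with the makeup of the whole library as the last bar. Double carriers have 19.0%, 28.6% and 36.1% double carriers among their neighbours. The libraries, which include cells without Trp63, hold 2.96%, 5.24% and 8.83%. Most of the remainder of these neighbours is both kinds of single carrier and other Trp63-positive cells, with 8.23%, 5.53% and 6.54% of further cells.

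Genes of the G2 and M phases were higher in double carriers than in Nkx2-1-only cells when compared within libraries. Of 30 such genes, 2 were higher and 0 lower without the block (median log2 difference 2.27; 1.88% and 1.86% of all genes) and 29 and 0 with it (9.03% and 8.81% of all genes). Top2a, the topoisomerase of dividing cells, was at 33.6, 5.62 and 44.5 CPM against 1.10, 1.93 and 5.75 in Nkx2-1-only cells (3.09 higher, SE 0.80, adjusted p 0.0689, with the block 6.6e-04), and at 41.4, 16.5 and 55.9 in Tmprss11a-only cells. Double carriers of library 2 were far below those of the other libraries. They lay above Nkx2-1-only cells of the same library and just below those of library 3. Against Tmprss11a-only cells 0 genes of the list passed the threshold without the block (median -0.42; 0 and 2 with it). After thinning, Top2a had a UMI in 3.06% ± 1.34 of double carriers, 0.633% ± 0.613 of Nkx2-1-only, 4.30% ± 2.17 of Tmprss11a-only and 0.634% ± 0.619 of Pdgfra cells (6.37%, 2.32%, 9.57% and 1.03% unthinned). Of 27 genes of the S phase, 0 were called in either comparison without the block (medians 0.54 and -0.26; with the block 11 higher and 0 lower, and 0 and 2), so that most S phase genes were not called.

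In the lists of signalling and adhesion most genes were not called without the block. Of 35 genes of the BMP, TGF-beta and Wnt pathways, 6 were higher and 1 lower than in Nkx2-1-only cells, with Wnt3a and Bmp4 among the higher (1.88% and 1.86% of all genes; 12 and 5 with the block, beside 9.03% and 8.81%), and 2 were higher and 1 lower than in Tmprss11a-only cells (4 and 4 with the block). Of 20 genes of adhesion to the basement membrane, 3 were higher and 0 lower than in Nkx2-1-only cells (Col17a1, Lama3 and Itga6; 6 and 3 with the block) and 2 higher and 0 lower than in Tmprss11a-only cells (Col4a2 and Lamb3; 2 and 1 with the block). Of 18 Notch pathway genes, 0 were called against Nkx2-1-only cells (3 higher and 3 lower with the block), and Notch3 alone against Tmprss11a-only cells (1 and 3 with the block). Of 14 genes of the Lrig and ErbB families, 0 were called against Nkx2-1-only cells (3 and 1 with the block), while Erbb4 was higher and Nrg4 lower than in Tmprss11a-only cells (1 and 5 with the block). Against Tmprss11a-only cells 3.50% of all genes were higher and 1.90% lower (9.0% and 7.83% with the block), and no test compared the lists.

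Markers of other cell types, and genes induced by dissociation, also differed between the groups. Of 15 genes of ciliated cells, 0 were higher and 10 lower in double carriers than in Nkx2-1-only cells (median -2.50; 1 and 12 with the block; 1.86% of all genes were lower, 8.81% with it), and 0 were called against Tmprss11a-only cells (median -0.34; 0 higher and 2 lower, Cfap43 and Tppp3, with the block). The sum of the list over cells was likewise lower in each library, at 1.07, 1.17 and 1.87 UMIs per 10000 against 3.09, 1.34 and 2.09 in Nkx2-1-only cells. Per cell the order was the reverse, with medians of 0.494, 0.482 and 0.806 per 10000 against 0, 0 and 0.378, and a UMI of the list in 58.2%, 63.9% and 69.3% of double carriers against 49.4%, 49.1% and 51.1% of the shallower Nkx2-1-only cells. Tmprss11a-only cells had higher medians still, at 0.996, 0.734 and 1.34 per 10000. Yet of the list Tppp3 alone was higher, and 13 genes were lower, in Tmprss11a-only than in Nkx2-1-only cells (11.4% and 13.5% of all genes). Which members set the order per cell was not tested. Foxj1, the factor of motile cilia, was at 1.41, 1.84 and 2.55 CPM in double carriers, 6.96 to 18.9 in Nkx2-1-only and 2.08, 2.08 and 2.36 in Tmprss11a-only cells. Of 8 thyroid genes, 0 were called against Nkx2-1-only cells without the block (median -3.53; 1 higher and 6 lower with it), and Foxe1 alone was lower than in Tmprss11a-only cells (median 1.38; 5 higher and 1 lower with it). Tg, encoding thyroglobulin, was at 17.3, 126 and 5.54 CPM in double carriers and 1357, 1453 and 81.4 in Nkx2-1-only cells, in which 20, 14 and 4 cells held at least 5 UMIs of Tg, against 2, 3 and 1 double carriers. Without such cells 537 in place of 614 genes were called against Nkx2-1-only cells, and with cells that also held Krt5 and Krt15 alone 342, of which 235 were higher and 107 lower; both limits were chosen after seeing the data. Of 11 neuroendocrine and C cell genes, 0 were called in either comparison without the block (medians -0.98 and 1.28), and with it 1 was lower than in Nkx2-1-only and 3 were higher than in Tmprss11a-only cells. Of 8 pericyte and smooth muscle genes, Notch3 alone was lower than in Tmprss11a-only cells (median -0.74; 0 higher and 3 lower with the block), and 0 were called against Nkx2-1-only cells (1 higher and 0 lower with it). Of 26 immediate-early and dissociation genes, 0 were called in either comparison without the block (medians -0.20 and -0.45). With it 1 was higher than in Nkx2-1-only cells and 8 were lower than in Tmprss11a-only cells. Of 25 tested against the mix, 9 were lower with the block, Jun, Fosb and Egr1 among them, beside 2.53% of all genes. For every list here, 1.88% of all genes were higher and 1.86% lower than in Nkx2-1-only cells (9.03% and 8.81% with the block). Against Tmprss11a-only cells it was 3.50% and 1.90% (9.0% and 7.83%). Of 10 macrophage and leukocyte genes, Lyz2 alone was lower in both comparisons (medians -1.68 and -0.05), with the block too. Of 10 gland acinar genes, 0 were higher and 2, Tff2 and Lyz2, lower than in Nkx2-1-only cells (median -1.55; 0 and 6 with the block), and Lyz2 alone was lower than in Tmprss11a-only cells. Tff2 was at 13.9, 4.59 and 36.4 CPM against 238, 188 and 64.0 in Nkx2-1-only cells. The limit on Krt5, Ltf, Scgb3a1 and Dcn together can remove cells with RNA of gland and secretory cells. Under it Ltf averaged 101 CPM in double carriers, 429 in Nkx2-1-only and 118 in Tmprss11a-only cells. Scgb3a1 averaged 58.4, 414 and 73.5 CPM in the same order. The part of this limit in the falls of gland genes was not tested. Pax7, a factor of muscle satellite cells, had a UMI in 7.55%, 5.35% and 7.21% of double carriers, 13.1%, 13.8% and 15.4% of Nkx2-1-only and 1.57%, 1.35% and 2.17% of Tmprss11a-only cells, whereas Myf5, of the same cells, had one in 0.539%, 0.802% and 1.27% of double carriers. At least 1 UMI of any of the 6 genes of other lineages was found in 16.7%, 9.89% and 12.4% of double carriers, between the 20.9%, 18.3% and 18.9% of Nkx2-1-only and the 8.83%, 5.18% and 7.54% of Tmprss11a-only cells. Pax7 alone of the 6 genes had this order in every library. In library 1, Csf1r had a UMI in 3.50% of double carriers, 2.24% of Nkx2-1-only and 0.813% of Tmprss11a-only cells. Pdgfra had one there in 2.16%, 2.99% and 3.31%. The part of cells with markers of other cell types in the differences between the groups was not tested beyond these exclusions.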

How the data were processed

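Single-cell RNA sequencing (10x Genomics GEM-X 3') of tdTomato-sorted larynx cells was analysed in 3 libraries. Per the labels, reads were processed with Cell Ranger 8.0.1 on mm39 (GRCm39), and the authors deposited whole-number UMI counts per gene and called barcode, without normalization. The doublet removal and cell limits of the study are not applied in the deposited counts. Of 33696 features, 33185 were found in a GRCm39 annotation, and 52 share a symbol.

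For each library the UMI counts of a group's cells were added up, and these sums were compared by edgeR 4.0.16 (R 4.3.3; two-sided quasi-likelihood test, TMM scaling, low counts removed by filterByExpr, no covariate), with 1 fit for the 3 groups and another for double carriers and the mix, which was drawn with a fixed seed. DESeq2 1.42.0 was an alternative. The 8 genes of the rule were left out of the tests. The groups share their pool within a library: deviations from the group means had a correlation of 0.188, 0.387 and 0.511 for double carriers and Nkx2-1-only cells, and of 0.270, 0.510 and 0.566 for double carriers and Tmprss11a-only cells. The library was therefore also used as a block. Pools differ, so p-values without the block measure the spread between pools. With the block they measure how far the differences between groups vary from pool to pool.

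Doublet scores rest on simulated doublets and 30 neighbours. The nominal doublet rate is general knowledge of the kit. Genes named are members of 5 of the 26 lists (airway, squamous, basal, suprabasal and hillock, foregut factors), the 10 largest rises and falls per test among genes averaging 10 CPM or more and moving alike in 3 libraries, and genes beyond both groups. As 3 genes were called against the mix, names there came from the fit with the block. Most other lists are given by counts with examples. The tight junction, fibroblast, endothelial, muscle satellite, myoepithelial, chondrocyte and tuft cell lists were counted but are not given. The members and lists were chosen with earlier results of these data known. Scripts were tested on simulated data.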

Additional observations from a re-analysis of the deposited data

How the results depend on the processing

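The 104 tests of named genes against either single carrier kept their direction under the 20 alternatives run on them, which leave out the other draw of the mix, as it does not enter these tests. None lost the threshold with the replicate block, DESeq2 or RLE factors, 27 lost it with at least 1 UMI of either gene or within 10000 to 25000 UMIs, 9 with single carriers matched in UMIs, 4 without cells of high doublet score, and 78, 56 and 30 without replicate 1, 2 and 3, where fewer libraries remain. The number of genes called depended strongly on the setting. With the replicate block 2926 genes were called against Nkx2-1-only cells (614 without), 2760 against Tmprss11a-only cells (885), 671 against the mix (3), 70 higher than both (5) and 57 lower than both (6). In the same order DESeq2 gave 1248, 1384, 268, 19 and 24. Leaving out 1 replicate gave 1 to 469, 163 to 562, 0 to 15, 0 to 5 and 0 to 12. With at least 1 UMI the counts were 389 against Nkx2-1-only cells, 0 against the mix, 0 higher and 2 lower than both, and with at least 3 UMIs 26 against the mix, 10 higher and 15 lower than both. Within the depth window 187 were called against Nkx2-1-only cells, 5 against the mix, and 3 higher and 3 lower than both. Without cells of high doublet score 44 were called against the mix, 13 higher and 12 lower than both. Another draw of the mix gave 2 genes, 0 higher and 2 lower, in place of 1 and 2. The 3 genes called against the mix kept their direction under 21 alternatives, and lost the threshold in 9 for Ly6c1, 5 for Gpnmb and 5 for Etv1. Against the mix the count was 25 without a filter on low counts, 8 with UMI-matched cells, 13 without cells holding a gene of another lineage, 20 without the Scgb3a2 limit and 0 when single carriers could hold 1 UMI of the other gene, and fewer genes were lower than both under UMI matching (3) and with 1 UMI of the other gene (3).

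Settings chosen after seeing the data were no cells with at least 5 Tg UMIs (3 lower than both) and, of the rest, cells with Krt5 and Krt15 (342 against Nkx2-1-only cells, 15 against the mix, 8 higher and 3 lower than both). Also added were the block with these cells (2585, 3054, 697, 76 and 65), with the doublet score (3125, 2435, 833, 93 and 67) and with UMI-matched cells (2128, 2229, 657, 53 and 42). The share of double carriers was 19.1% with at least 1 UMI of each gene, 4.51% with at least 3 and 1.30% after thinning (8.95% as reported; 7.12% to 10.3% without 1 replicate). The cause of these changes was not tested. Depth limits which cells can meet the rule: 2, 0 and 11 cells under 5000 UMIs did.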
